A study of Mus musculus with 64 samples.

Results

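The hemoglobin-rich brain libraries are 9 of the 48 brain libraries (of 64 in all) in a mouse RNA-seq study. They were chosen by the deposited level of Hbb-bs, an adult beta globin gene: a library counted as hemoglobin-rich where that level, on the log2 scale, was above 13. The rule picked 2 of 16 libraries of prefrontal cortex (PFC), 3 of 16 of hippocampus (HIP) and 4 of 16 of hypothalamus (HYP). The other 14, 13 and 12 libraries of the same tables are called the other libraries. The study compared male BALB/c mice, 28 weeks old, exposed for 9 weeks to a chronic, mild stress paradigm of unpredictable events (UCMS) with unstressed controls of the same strain, sex and age. Each brain region had 8 control and 8 UCMS libraries from 16 animals, and whole blood, with 7 control and 9 UCMS libraries, brought the animals to 17. No animal carried a transgene or other allele per the labels, and UCMS is used as a model of depressive illness.

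The 9 libraries came from 4 animals and are not 9 independent samples. Control animal C1 and UCMS animal S7 were above the threshold in all 3 regions, control animal C7 in HIP and HYP, and UCMS animal BS2 in HYP. By treatment, 5 were control and 4 were UCMS libraries, from 2 animals of each group. The brain regions of C7 and BS2 that were not above it read like the rest: Hbb-bs was 5.37 in the PFC of C7, and 5.10 and 4.79 in the PFC and HIP of BS2. Neuronal markers were present in all 9, at a mean level over 14 genes of 7.44 to 7.54 in PFC, 7.40 to 7.49 in HIP and 7.23 to 7.34 in HYP, against 7.28 to 7.67, 7.51 to 7.59 and 6.97 to 7.39 in the other libraries.

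As background, hemoglobin is built from alpha and beta globin chains that each hold a heme group, and Alas2 makes the first committed step of heme synthesis in red cell precursors. Reticulocytes, the youngest red cells in circulation, have lost their nucleus but still carry globin mRNA and a small set of other long-lived transcripts. Platelets carry transcripts of the megakaryocyte they came from, such as those of the chemokines Pf4 and Ppbp, while neutrophils, monocytes, T, NK and B cells each have markers of their own. Brain tissue taken without flushing the vessels holds some blood. The erythroid factor Gata1 binds DNA at GATA motifs.

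The promoters of the 3 genes that define these libraries are shown because all 3 genes moved together across libraries. The windows are the 250 bases before the annotated start (RefSeq, GRCm38.p6), read 5′ to 3′ along the gene's strand. Capitals mark AGATAA or TGATAA, searched on both strands. For Hbb-bs the window is chr7:103827929-103828178, minus strand, with AGATAA at 210 to 205 bases before the start. For Hba-a1, an adult alpha globin gene, it is chr11:32283422-32283671, plus strand, with TGATAA at 183 to 178 bases before the start. For Alas2 it is chrX:150547167-150547416, plus strand, with AGATAA on the opposite strand at 86 to 81 bases before the start, so that its complement is printed.
Hbb-bs: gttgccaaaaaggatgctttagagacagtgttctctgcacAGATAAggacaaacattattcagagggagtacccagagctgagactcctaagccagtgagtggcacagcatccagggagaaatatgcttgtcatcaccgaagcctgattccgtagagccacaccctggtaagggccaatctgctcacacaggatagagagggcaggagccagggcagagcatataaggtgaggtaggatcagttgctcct
Hba-a1: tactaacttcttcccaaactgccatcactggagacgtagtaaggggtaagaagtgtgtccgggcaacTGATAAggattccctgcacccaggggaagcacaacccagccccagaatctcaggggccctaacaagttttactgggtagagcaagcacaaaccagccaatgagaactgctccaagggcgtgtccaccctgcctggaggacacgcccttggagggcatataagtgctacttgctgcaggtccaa
Alas2: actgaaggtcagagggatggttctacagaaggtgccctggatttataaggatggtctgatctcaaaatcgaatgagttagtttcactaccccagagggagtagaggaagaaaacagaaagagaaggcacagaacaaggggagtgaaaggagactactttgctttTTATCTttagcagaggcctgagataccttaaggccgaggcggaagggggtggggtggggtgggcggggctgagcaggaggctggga
Either motif was present in 5452 of 32851 mouse promoter windows of this length (16.6%). It was in 6 of 8 globin windows, 3 of 14 of the heme synthesis list, 5 of 16 of the red cell membrane and enzyme list, 3 of 29 of the reticulocyte list and 4 of 16 of the platelet list. A match is a description of these letters only, and 6 bases recur often. The windows are reference sequence, and the bases that these BALB/c mice carry there were not examined.

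The tables list 15697 genes in PFC, 15573 in HIP, 16155 in HYP and 8830 in blood, without read counts, so the depth of each library is unknown. Within a table nearly all libraries share 1 distribution of values: at 78.1%, 78.8% and 77.8% of the ranks in PFC, HIP and HYP all libraries were equal within 0.002. A level is therefore set by a gene's rank in its library, and the highest ranks give the same number in library after library. Each table was normalized on its own, so tests stay within a table, and a level of one table set beside that of another (blood beside brain, for example) is a comparison of ranks. The titles name the animal each library came from.

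Hbb-bs was 14.568 in C1 and 14.152 in S7 in PFC, against a lowest, median and highest value of 4.440, 5.314 and 9.625 in the other 14 libraries. In HIP it was 14.397 in C1, C7 and S7 alike, against 4.787, 5.395 and 9.447. In HYP it was 14.216 in C1 and 14.025 in C7, S7 and BS2, against 4.022, 5.033 and 8.203. No library fell between 9.625 and 14.025, so the threshold at 13 sits in an empty range, and the groups are separated by construction.

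The other hemoglobin genes had the same split. Hba-a1 was at the third rank of every hemoglobin-rich library, where its level was 16.518 in PFC, 16.597 in HIP and 16.906 in HYP, against 7.491 to 11.893, 7.813 to 11.784 and 7.778 to 11.566 in the other libraries. Its rank in those libraries ran from 22 to 756 in PFC, 25 to 614 in HIP and 38 to 673 in HYP. Hba-a2, its neighbour on chromosome 11, was at rank 4 in all 9. Hbb-b1 was 13.485 in both PFC libraries, 13.590 in the 3 HIP libraries and 13.137 to 13.744 in the 4 HYP libraries, against at most 8.314, 8.350 and 6.815. The mean difference on the log2 scale was 8.33, 8.24 and 8.48 for Hbb-bs in PFC, HIP and HYP, 7.74, 7.71 and 7.69 for Hba-a1, 7.50, 7.42 and 7.22 for Hba-a2, and 8.45, 8.44 and 8.88 for Hbb-b1. Hba-a1 and Hba-a2, and Hbb-bs and Hbb-b1, are near-identical in sequence, so the counting could split their reads and the value of each entry is uncertain. Whether Hbb-bs and Hbb-b1 are separate genes in this strain was not examined. In HYP alone the table also lists Hba-x, an embryonic alpha-like gene, and Hbq1a and Hbq1b, theta globins, at 4.26, 3.61 and 4.41 above the other libraries on the log2 scale. All 3 are listed there only through the hemoglobin-rich libraries.

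Alas2 was 10.988 in C1 and 10.590 in S7 in PFC, where the other libraries lay between 1.050 and 4.698. In HIP it was 10.195 in C1, 10.495 in C7 and 10.729 in S7, against 0.870 to 4.290. In HYP it was 10.669 in C1, 10.113 in C7, 10.192 in S7 and 10.082 in BS2, against 1.116 to 3.617. No hemoglobin-rich library overlapped the others for Alas2, with differences of 8.49, 8.53 and 8.22. Since the globins and Alas2 mark the rule's choice, these values are a description and were not tested. In blood, Hba-a1 was also at rank 3 in all 16 libraries, and Hbb-bs at rank 5 or 6.

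**Figure D1:**
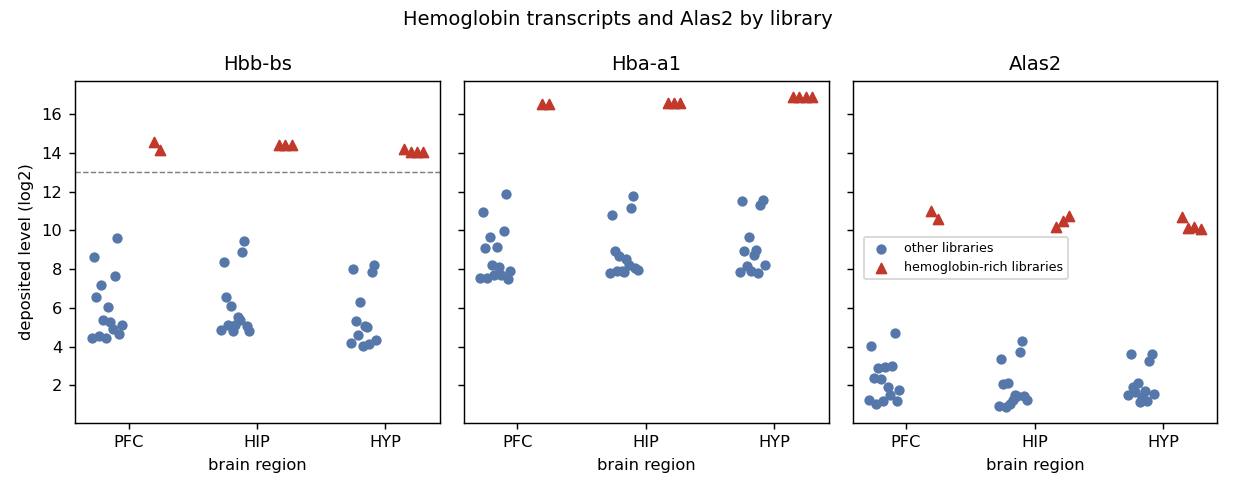
Deposited log2 level (y axis) of Hbb-bs, Hba-a1 and Alas2 in each library of PFC, HIP and HYP; triangles are the hemoglobin-rich libraries, circles the others, and the dashed line is the threshold of 13 on Hbb-bs. In each panel all triangles sit above all circles, and the circles themselves spread over several log2 units.

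The globin level was graded in the other libraries too. Animals C3, S4 and S5 had the highest Hbb-bs of the other libraries in every region: 8.61, 7.64 and 9.63 in PFC, 8.37, 8.89 and 9.45 in HIP, and 8.02, 7.83 and 8.20 in HYP. Across the 14, 13 and 12 other libraries of PFC, HIP and HYP, Hba-a1 went with Hbb-bs at Pearson's r of 0.994, 0.994 and 0.996 (Spearman's rho 0.938, 0.874 and 0.951). Hbb-b1, which is near-identical in sequence and may share reads, went with Hbb-bs at 0.999 in all 3 (rho 0.991, 0.956 and 0.993). Alas2 went with it at r of 0.970, 0.988 and 0.976 (rho 0.952, 0.868 and 0.923). The permutation p adjusted over these 9 relations was at most 3e-05 for r and at most 0.00027 for rho. Without the 2 libraries farthest from the median of Hbb-bs, r was 0.983 to 0.998 for the globins and 0.920, 0.966 and 0.952 for Alas2. Without C3, S4 and S5, a choice made after seeing the data, r was 0.976, 0.958 and 0.972 for Hba-a1 and 0.910, 0.893 and 0.850 for Alas2.

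The next comparisons ask which other transcripts came with the hemoglobin. The 3 regions were combined in 1 limma fit with region as a term and the animal as a random block, over 13512 genes present in all 3 tables, with globins and Alas2 left out; 543 genes were called higher and 317 lower in the hemoglobin-rich libraries at a Benjamini-Hochberg adjusted p below 0.05. A gene that enters a table or passes the filter on low values only through the hemoglobin-rich libraries had to differ, so lists are counted over genes that passed through the other libraries alone. Of 13392 such genes, 503 (3.76%) were called higher and 317 (2.37%) lower, and their median difference was -0.05 on the log2 scale. Region by region, 189 of 14069 genes were called higher (1.34%) and 16 lower (0.114%) in PFC, 336 of 13928 higher (2.41%) and 108 lower (0.775%) in HIP, and 700 of 14405 higher (4.86%) and 790 lower (5.48%) in HYP. The number of hemoglobin-rich libraries rises in the same order, from 2 to 4. Without C1, the higher count in HYP fell from 757 to 434 and in PFC from 210 to 97; without S7 it fell to 132 in PFC and from 370 to 241 in HIP. Lower counts moved more: in HYP the count was 790, and 213, 289 and 395 without C1, C7 and S7; in HIP it was 108, and 71 and 32 without C7 and S7; in PFC it was 16, and 5 without C1. The combined lower count of 317 was 154 without C1, 135 without S7 and 174 without C7.

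Only C7 and BS2 gave both kinds of library, so only they bear on a comparison within animals. With the animal as a fixed replicate block, which rests on these pairs, 183 genes were called higher and 21 lower, and 165 of the 183 were among the 543. The genes named below that were no longer called in that paired fit were Tfrc, Gypc, Prdx2, Fbxo7, Ubb, Xpo7, Tal1, Lmo2, Mxd1, Tyrobp, Laptm5, Coro1a, Tcf7, Pecam1, Mylk, Gja1, Eno2, Btg2, Bcl2l1, Esrp2, Rpph1 and Tgtp1, with adjusted p from 0.0858 for Prdx2 to 0.8148 for Lmo2; the paired differences of these genes kept their sign.

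**Figure D2:**
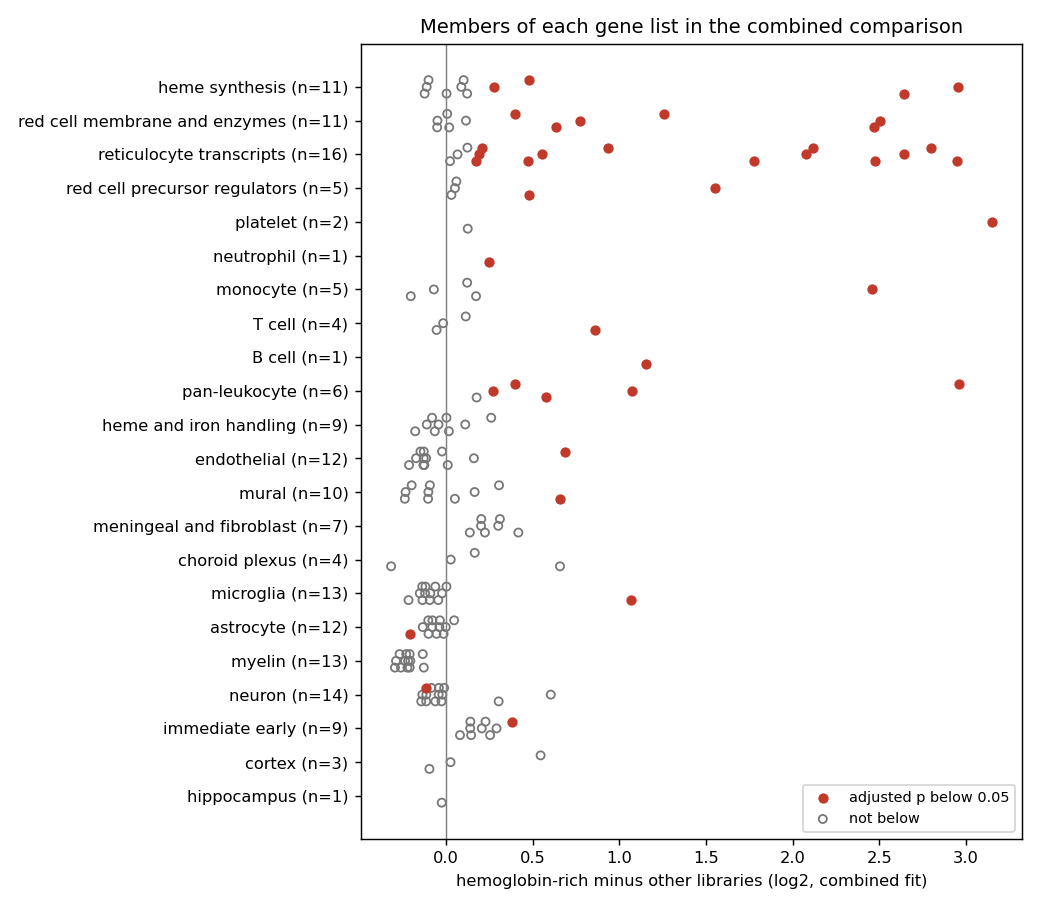
Difference between hemoglobin-rich and other libraries (log2, combined limma fit) for each member of each gene list that passed through the other libraries alone; filled points have an adjusted p below 0.05 and open points do not, and n is the number of members shown. The red cell lists reach 2.95, the platelet list 3.15 and the pan-leukocyte list, of genes shared by many white cells, 2.96. Members of the heme and iron handling, meningeal, choroid plexus, myelin, cortex and hippocampus lists are all open.

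Transcripts of the late red cell came with the hemoglobin. On the list of reticulocyte transcripts, 13 of 16 genes rose and 0 fell (median 0.74, against -0.05 for all genes). Bnip3l, a mitophagy receptor that clears mitochondria from maturing red cells, was 8.462 and 8.099 in PFC (C1, S7), 7.971, 8.205 and 8.521 in HIP (C1, C7, S7), and 8.701, 8.043, 8.132 and 7.987 in HYP (C1, C7, S7, BS2), against 5.181 to 5.474, 5.134 to 5.519 and 4.977 to 5.449 in the other libraries. All hemoglobin-rich libraries lay above all others in each region. It rose by 2.95 ± 0.06 (SE; adjusted p 1.176e-38).

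Ybx3, a cold-shock domain protein that represses translation, rose by 2.80 ± 0.09, Gpx1, a glutathione peroxidase, by 2.64 ± 0.07, and Mkrn1, a ubiquitin ligase, by 2.47 ± 0.05. Ftl1, the ferritin light chain, rose by 2.12 ± 0.07, and Adipor1, an adiponectin receptor, by 2.08 ± 0.05. Smaller rises of 0.93 for Tfdp2, 0.56 for Hagh, 0.47 for Ube2o, 0.21 for Fbxo7, 0.19 for Ubb and 0.17 for Xpo7 passed the test; Fbxo7 did not without S7 (adjusted p 0.1052). Foxo3, Eif2ak1 and Cpeb4 did not, with differences of 0.12, 0.07 and 0.02. The list was made with earlier results of these data known, and its direction is not independent evidence.

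A few red cell transcripts were so low in the other libraries of at least 1 table that they are left out of that count. Ube2l6, an enzyme that conjugates ISG15, was 11.585 and 11.087 in PFC, 9.937 to 10.385 in HIP and 9.303 to 10.018 in HYP, against at most 5.265, 4.222 and 3.236. Its difference in the combined fit was 7.31 ± 0.20, the nearest to the globins among the genes named here. Fam46c (Tent5c), a noncanonical poly(A) polymerase, differed by 6.01 ± 0.17, and Slc25a37 (mitoferrin 1), the mitochondrial iron importer of erythroid cells, by 4.27 ± 0.10. Cdr2 differed by 3.20 ± 0.16.

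Heme synthesis split by step. Of 11 genes, 4 rose and 0 fell (median 0.10). Fech, the ferrochelatase that inserts iron into heme in the last step, was 7.715 and 7.350 in PFC, 7.222 to 7.701 in HIP and 7.520 to 8.185 in HYP, against at most 4.902, 4.802 and 4.840, and rose by 2.95 ± 0.06. Slc25a39, a mitochondrial glutathione carrier, rose by 2.64 ± 0.07, and Tfrc, the transferrin receptor, by 0.48 ± 0.10; without C1, Tfrc was no longer called (0.38, adjusted p 0.0657). The enzymes between them had differences near 0: Alad 0.00, Urod 0.09, Uros -0.11 and Cpox -0.12. Abcb6, Abcb10 and Slc25a38 were not called either.

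Among red cell membrane proteins and enzymes, 6 of 11 genes rose and 0 fell (median 0.40). Epb41, the membrane skeleton protein 4.1, rose by 2.50 ± 0.09 and Bpgm, which makes the 2,3-bisphosphoglycerate of red cells, by 2.47 ± 0.06. Gypc, a glycophorin, rose by 1.26 ± 0.19, Blvrb, a biliverdin reductase, by 0.77 ± 0.08, Cat, catalase, by 0.64 ± 0.06 and Prdx2, a peroxiredoxin, by 0.40 ± 0.05. Ank1 (0.01), Sptb (0.02), Car2 (-0.05), Dmtn (-0.05) and Tmod1 (0.12), which brain cells express as well, were not called. Slc4a1, the band 3 anion exchanger, is listed only in HYP, and there only through the hemoglobin-rich libraries. Slc4a1 was 5.494, 4.881, 4.964 and 4.887 in C1, C7, S7 and BS2 and at most 0.529 in the other 12.

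That listing pattern was a feature of HYP. A table lists a gene when 4 libraries reach a floor of 2.463 in PFC, 2.416 in HIP or 2.500 in HYP, and only HYP has 4 hemoglobin-rich libraries. Thus 147 genes of the HYP table, against 13 in PFC and 12 in HIP, are there through the hemoglobin-rich libraries; 141 of the 147 are in the blood table too, and in 140 all 4 hemoglobin-rich libraries were above all others. The absence of such a gene from the PFC or HIP table says nothing about its level there. Over all genes listed through the other libraries, the hemoglobin-rich libraries all lay above the rest for 419 of 15679 genes in PFC (2.67%), 435 of 15557 in HIP (2.8%) and 488 of 16004 in HYP (3.05%), and all below for 163 (1.04%), 289 (1.86%) and 282 (1.76%).

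Regulators of red cell precursors were a mixed group, with 2 of 5 called higher and 0 lower (median 0.06). Tal1, a helix-loop-helix factor of erythroid cells that is also expressed in some neurons, rose by 1.55 ± 0.18, and Lmo2, its partner, by 0.48 ± 0.09. Tal1 was called in PFC (2.14, adjusted p 5.606e-05) and HIP (2.05, adjusted p 2.236e-06) and not in HYP (0.86, adjusted p 0.0603), where the other libraries reached 5.821 and overlapped the hemoglobin-rich ones at 5.183 to 6.039. Kit, Epor and Zfpm1 were not called. Gata1 is listed only in HYP, and there only through the hemoglobin-rich libraries. Gata1 was 4.136, 2.930, 3.638 and 3.335 in C1, C7, S7 and BS2, against at most 0.852. Its mean over the 16 blood libraries was 3.88.

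Platelet transcripts were present. The platelet list has 19 of its 20 symbols in the HYP table, 14 of them there only through the hemoglobin-rich libraries. Pf4, a platelet chemokine, was 7.553, 6.910, 6.927 and 6.975 in HYP, against 0.529 to 1.949. Ppbp, another, was 8.859, 9.069 and 9.406 in HIP (others at most 3.497) and 8.300, 7.653, 7.760 and 7.622 in HYP (others at most 2.370). No library overlapped for either. In HYP the other libraries were under the floor of 2.500 for both genes, so the lack of overlap there was fixed by the listing. In HIP, Ppbp did not pass through the other libraries alone, so its lack of overlap there is a description and not a test.

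Gng11, a G protein gamma subunit abundant in platelets, was 7.864 and 7.370 in PFC (others 3.677 to 4.612), 7.560, 7.695 and 7.962 in HIP (3.560 to 4.499) and 8.416, 7.845, 7.980 and 7.860 in HYP (4.769 to 6.112). It rose by 3.15 ± 0.14 in the combined limma fit (adjusted p 1.283e-24). Gp1bb, the other platelet gene that passed through the other libraries in all tables, was not called (0.13). Among platelet genes countable in 1 table, 3 of 4 rose in PFC (Gng11, Itgb3, Plek), 5 of 6 in HIP (with F13a1 and Gp5) and 3 of 3 in HYP (Gng11, Gp1bb, Gp5). Itgb3, the beta chain of the platelet fibrinogen receptor, rose by 2.25 in PFC and 3.03 in HIP.

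Some white cell transcripts came with the hemoglobin at lower levels. S100a8 and S100a9, the calgranulins of neutrophils, were 5.899, 5.122, 5.285 and 5.134, and 6.479, 5.810, 5.811 and 5.535, in HYP, against at most 1.966 and 1.804. In PFC S100a8 was 5.944 and 5.477 and S100a9 6.846 and 6.357, but 1 or more other libraries reached 5.677 and 5.621, so the groups overlapped for S100a8. Cxcr2, a neutrophil chemokine receptor, was 4.920 to 5.783 in HYP, against at most 1.274. S100a8, S100a9 and Cxcr2 are listed in HYP only through the hemoglobin-rich libraries, so their lack of overlap there was fixed by the listing. Of the neutrophil genes countable in a single region, 0 of 1 were called in PFC, 0 of 1 in HIP and 0 of 2 in HYP. Mxd1, the neutrophil list's single countable gene in the combined fit, rose by 0.25 ± 0.07 (adjusted p 0.0182) and was not called without C1 (0.1763) or without S7 (0.1172). Of 5 countable monocyte genes, Lyz2, lysozyme, rose, by 2.46 ± 0.21; Ace, Emilin2, Ly6c2 and Vcan did not pass.

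Of genes shared by many white cells, 5 of 6 were called higher and 0 lower in the combined fit (median 0.49), and 3 of 7 were called higher in PFC, 3 of 7 in HIP and 4 of 6 in HYP. Srgn, the granule proteoglycan serglycin that platelets also carry, rose by 2.96 ± 0.13, Cd53, a tetraspanin, by 1.07 ± 0.08, Tyrobp, a signalling adaptor, by 0.58 ± 0.13, Laptm5 by 0.40 ± 0.07 and Coro1a by 0.27 ± 0.06. Tmsb10, at 0.18, did not pass. Tyrobp was called in no single region and not without S7 (adjusted p 0.0582).

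For B cells, Igkc, the kappa light chain constant region, was 6.762, 6.317, 6.161 and 6.098 in HYP, with the other 12 libraries at 0.785 to 2.557. Igkc did not pass through the other libraries alone, so its lack of overlap is a description and not a test. Ighm, the IgM heavy chain, rose by 1.15 ± 0.12 in the combined fit, and Cd79a, Ms4a1 and Ighd were in the HYP table through the hemoglobin-rich libraries, at 3.211 to 4.319, 3.727 to 4.558 and 3.720 to 4.678. For T cells, 1 of 4 countable genes rose: Tcf7, by 0.86 ± 0.14; Lef1, Cd247 and Thy1, all expressed in brain, did not pass. Ccr7, a receptor of naive lymphocytes, was 4.387 to 5.322 in HYP, against at most 0.668, and is listed there only through the hemoglobin-rich libraries.

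The defining genes of T and NK cells Cd3d, Cd3e, Cd3g, Lck, Nkg7, Gzma and Klrk1 are in the blood table and in none of the 3 brain tables. Their mean blood levels were low to begin with, at 3.74, 3.93, 3.60, 3.16, 2.88, 3.37 and 3.93, near the floors of the brain tables. Whether they came with the hemoglobin was not detectable. The cell division list of 16 genes had 1 countable member in PFC and in HIP, Mki67, and 0 in HYP and in the combined fit. Its members Top2a, Ccnb2, Birc5 and Kif11 are in the blood table and in no brain table, so the list as a whole was not assessed. Mki67 was 6.832, 7.053 and 7.222 in HIP, against 3.255 to 4.799, and rose there by 2.90 ± 0.28 (limma, adjusted p 9.834e-07). In PFC it was 7.014 and 6.867 against at most 6.003, and did not pass (2.17, adjusted p 0.0605). In HYP it was 4.560 to 5.309, against at most 1.711, and is listed there only through the hemoglobin-rich libraries.

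In bulk tissue, more blood cells and more RNA per blood cell cannot be told apart, and the same holds for the brain cells. Genes that handle heme and iron released from red cells had no call: 0 of 9 rose and 0 fell (limma, combined; median -0.04), and 1 of 9 had an unadjusted p below 0.05. Hmox1, heme oxygenase 1, which breaks heme down, differed by 0.26 ± 0.09 (adjusted p 0.0646); with Hbb-bs as a continuous covariate its adjusted p was 0.0051, and with no replicate block it was 0.0435.

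Vessel and wall markers were near the all-gene median. Of 12 endothelial genes 1 rose, Pecam1, which platelets also express, by 0.69 ± 0.08 (list median -0.13). Of 10 mural genes 1 rose, Mylk, a myosin kinase of smooth muscle, by 0.66 ± 0.12 (median -0.10). None of 7 meningeal genes was called (median 0.23), with 0 at an unadjusted p below 0.05, and none of 4 choroid plexus genes (median 0.10), also with 0. In HYP, Ttr, transthyretin, the main choroid plexus transcript, was called, but not without C1 (adjusted p 0.0865), without C7 (0.0521) or with Hbb-bs as a continuous covariate (0.1428).

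Of 13 microglial genes, P2ry12, an ADP receptor of microglia that platelets carry too, was called higher, by 1.07 ± 0.09, and the list's median was -0.09. Its mean over the blood libraries was 6.98. Of 12 astrocyte genes Gja1, a gap junction protein, fell by 0.21, and of 14 neuronal genes Eno2 fell by 0.12. Both falls were lost without 1 animal, Gja1 without C1 (adjusted p 0.1438) and Eno2 without S7 (0.1343) or C7 (0.0624). By region, Aldoc, Gja1 and Slc4a4 fell in HYP and Slc1a2 in HIP among astrocyte genes; among neuronal genes Eno2 and Tubb3 fell in HYP and Camk2a and Slc17a7 fell in HIP but rose in HYP. No myelin gene was called of 13 in the combined fit (median -0.22, 0 at an unadjusted p below 0.05), with a list median of -0.12 in PFC and 0.16 in HIP. In HYP the median was -0.57: Cnp, an enzyme of the myelin sheath, fell, and all 13 genes had an unadjusted p below 0.05, at differences from -0.69 to -0.47.

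Immediate early genes differed by region. In the combined fit 1 of 9 rose, Btg2, by 0.38 ± 0.08. In HYP, 6 of 9 rose (Arc, Btg2, Egr1, Fosb, Junb and Nr4a1; median 0.54), while 0 of 10 were called in PFC (0 at an unadjusted p below 0.05) and 1 of 10 in HIP. Egr1, an activity-induced zinc finger factor, was 6.316, 6.018, 6.008 and 5.932 in HYP, against 5.002 to 5.476, and rose by 0.82 ± 0.09. The HYP libraries above 13 also carried some cortical and hippocampal transcripts, described below. Egr1 is one of the genes with a higher level in PFC, and the part of that in the rise was not tested.

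Outside the lists, the largest rises among the genes called in the combined fit were led by Ctla2a, a cathepsin inhibitor, at 5.87 ± 0.16, Cd24a, a surface glycoprotein of immature red and white cells, at 3.82 ± 0.18, Ucp2, a mitochondrial carrier, at 3.53 ± 0.11, and March2, a ubiquitin ligase, at 3.52 ± 0.08. Ctla2a is not among the counted genes, since its level in the other libraries alone was under the filter. Hmga2-ps1 (3.06), Gm8283 (3.06), 1810058I24Rik (3.05) and Fam220a (2.98) followed; a pseudogene can share reads with its parent gene, so the value of Hmga2-ps1 is uncertain.

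Among the 10 largest falls outside the lists were RNAs at the top of the ranking. Malat1, a nuclear long noncoding RNA, was 13.654 in both PFC libraries (others 14.568 to 16.518), 13.878 in the 3 HIP libraries (15.613 to 16.195) and 14.025 to 14.216 in HYP (15.470 to 16.340). It fell by 1.73. LOC101056014 fell by 1.74, Rn7sk, the 7SK small nuclear RNA, by 1.13, and Rpph1, the RNA of RNase P, by 0.75. Esrp2, which codes for a splicing regulator, fell by 1.07 and was not called without S7 (adjusted p 0.1555). With the globins removed and the libraries normalized again, the calls of the 4 noncoding RNAs ended: Malat1 was at -0.12 (adjusted p 0.5923), and LOC101056014, Rn7sk and Rpph1 were at 0.11, 0.03 and 0.15. Globins hold places between ranks 3 and 12 of the hemoglobin-rich libraries, and a gene ranked below them takes a lower value of the shared distribution. The cause of these falls was not tested. In PFC, 2 genes were called lower after that removal, against 16 before.

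The rises followed the blood level. Of the 503 genes called higher, 464 (of 7591 countable genes) are in the blood table and 39 (of 5801) are not, and of the 317 called lower, 206 and 111. Ordered by the mean blood level minus the mean level in the other brain libraries, the share called higher was 0.7% of 307 genes more than 4 below, 0.2% of 1930 between 4 and 2 below, 2.0% of 4550 between 2 below and equal, 31.8% of 554 up to 1 above, 70.5% of 166 from 1 to 2 above and 89.3% of 84 at 2 or more above. Across the 7591 genes, the difference and that gap had a Spearman's rho of 0.389, given as a description since both hold the level of the other libraries. Of genes more than 4 below in blood, 101 of 307 were called lower.

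**Figure D3:**
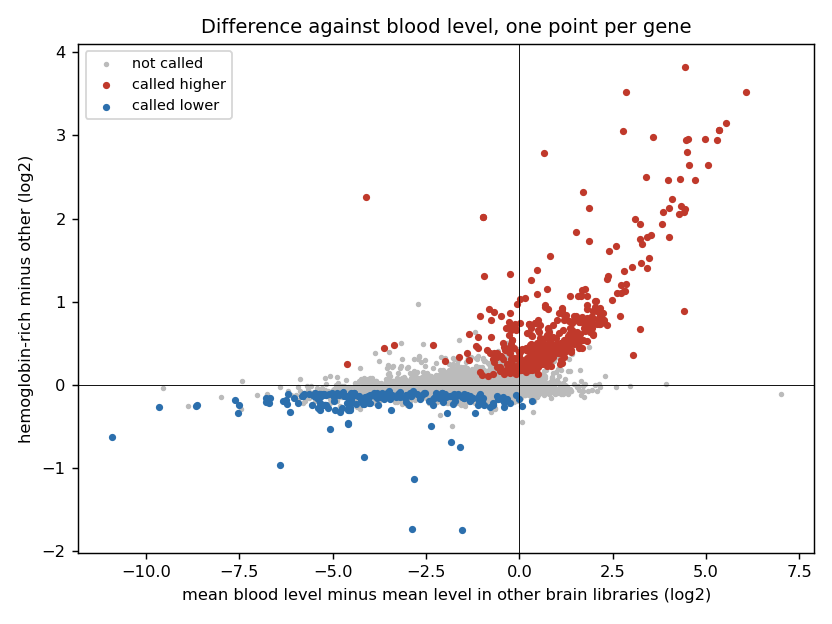
Each point is a gene in the blood table that passed through the other libraries alone: x is its mean blood level minus its mean in the other brain libraries (log2) and y its difference in the combined fit (log2), with colour for genes called higher, lower or not. Points to the right of 1 are mostly called higher, and a single gene near 7 on the x axis stays near 0.

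Some genes high in blood did not come along. Lars2, the mitochondrial leucyl-tRNA synthetase, had a mean of 10.8 in blood and was 3.441 and 3.611 in the PFC libraries, 3.198 to 3.688 in HIP and 3.760 to 3.992 in HYP, within or below the other libraries' range of 3.568 to 3.971, 3.323 to 3.812 and 3.661 to 4.162. Its difference was -0.11 (95% interval -0.21 to 0.00, adjusted p 0.2779). Bcl2l1, an anti-apoptotic gene of late red cell precursors, had a mean blood level of 8.75, 3.05 above the other brain libraries, and rose by 0.36 ± 0.05. Other genes with a symbol at 2 or more above in blood that were not called were Gm608, Tmem206, Ccdc50, B3gat2, Cbx5, Hjurp and Sft2d2, with differences of -0.07 to 0.11.

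Set beside blood, where only ranks compare, the hemoglobin-rich libraries were mostly lower, by an amount that varied with the list. Over members at least 2 above the other libraries, the median of blood minus hemoglobin-rich level was 1.85, 1.80 and 1.75 for the reticulocyte list in PFC, HIP and HYP (9, 9 and 13 genes). It was 1.56, 1.54 and 1.88 for heme synthesis (4 genes in each) and 0.998, 0.927 and 1.263 for globins (4, 4 and 7). For red cell membrane proteins and enzymes it was 0.87, 0.70 and 1.28 (3, 3 and 8), and for platelets 0.26, 0.50 and 1.39 (8, 8 and 17). Where HYP has more members, some are listed only through its hemoglobin-rich libraries. The medians of those lists are therefore not over the same genes, and their change between regions was not assessed. Members differed widely: Fam46c was 10.140 to 10.583 in HIP against a blood mean of 7.96, while Gpx1 was 8.907 to 9.443 there against 11.7. Mki67 in HIP was above its blood mean of 4.49 as well. These differences have no test.

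**Figure D4:**
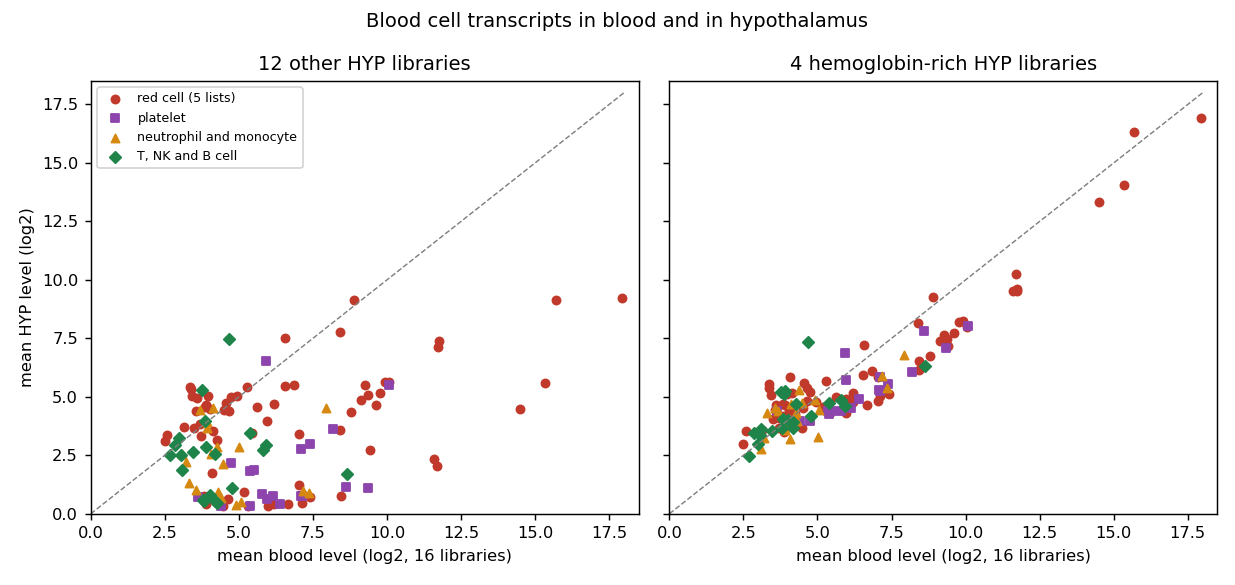
Mean HYP level (y, log2) against mean level in the 16 blood libraries (x, log2) for members of the red cell, platelet, neutrophil and monocyte, and lymphocyte lists, in the 12 other libraries (left) and the 4 hemoglobin-rich libraries (right); the dashed line marks equal values. In the right panel the members lie along a band mostly at or below the line at high blood levels, while in the left panel most lie far below it. Members listed in HYP only through the hemoglobin-rich libraries are drawn too, and for these the contrast between the panels is fixed by the listing.

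The hemoglobin-rich libraries also kept an order among themselves. Over the genes called higher and present in the blood table, C1 had the highest level for 183 of 205 genes in PFC and 418 of 577 in HYP, and S7 for 242 of 335 in HIP. The mean level over these genes was 6.42 and 6.18 (C1, S7) in PFC, 5.81, 5.93 and 6.06 (C1, C7, S7) in HIP, and 5.86, 5.66, 5.67 and 5.57 (C1, C7, S7, BS2) in HYP.

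The blood of these 4 animals did not stand apart by test. Hbb-bs was 15.423 in the blood of C1, C7, S7 and BS2 alike, against 14.728 to 15.423 in the other 12 animals, and Alas2 was 11.762, 11.424, 11.620 and 11.762 against 11.424 to 12.346. With limma, 0 of 7947 genes were called higher and 0 lower between the 4 and the other 12, with 125 at an unadjusted p below 0.05. That none passed does not show that the 2 sets of blood libraries were alike.

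Some transcripts of other brain regions came with the hemoglobin as well. On the cortex list, 1 of 3 countable genes, Tbr1, was called higher in HYP, and Cux2 and Rorb were not (median -0.009). On the hippocampus list, 0 of 2 were called in HYP and 0 of 1 in PFC. In HIP, 0 of 4 cortex genes were called. The hypothalamus list had 0 countable genes in PFC and HIP. The genes counted next were chosen after seeing the data. They are not in the blood table, and their mean in the other libraries of another region was at least 2.5 higher (log2). Of 23 such HYP genes in PFC, 21 had a higher mean in the hemoglobin-rich libraries (median 1.10, against -0.03 for all PFC genes, of which 42.4% were higher). Of 6 HIP genes in PFC, 5 did. Of 18 HYP genes in HIP, 14 did (median 0.58, against 36.6% of all genes). In HYP, 27 of 31 PFC genes (median 0.88) and 26 of 32 HIP genes (median 1.01) did, against 32.7% of all genes. Many genes, such as Neurod6, Slc17a7 and Itpka, are in both of these HYP sets. Choosing genes by a low mean in the other libraries favours a higher mean in the hemoglobin-rich ones, so the counts are a description. For none of these sets was there a gene with all hemoglobin-rich libraries below all others, and for 5, 2, 9, 8 and 6 of the genes, in the order given, all were above. Over all genes listed through the other libraries, all were above for 2.67% in PFC, 2.8% in HIP and 3.05% in HYP, and all below for 1.04%, 1.86% and 1.76%. The single PFC gene in HIP was lower.

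Pmch, the melanin-concentrating hormone precursor made by neurons of the lateral hypothalamus, was 6.774, 6.983 and 7.329 in the HIP libraries of C1, C7 and S7, against a lowest, median and highest value of 0.452, 1.570 and 3.179 in the other 13. Agt, angiotensinogen, high in hypothalamic astrocytes, was 5.328 and 5.036 in PFC (others 1.869 to 4.305) a difference of 2.35. Neurod6, a factor of cortical and hippocampal pyramidal neurons, was 6.425, 5.752, 5.652 and 5.413 in HYP (others 2.321 to 3.974), a difference of 2.74. In these tables Agt and Neurod6 passed the filter on low values only through the hemoglobin-rich libraries, and Pmch did not pass it. The differences of all 3 genes are therefore a description with no test. In each of the 3 cases no hemoglobin-rich library overlapped the others.

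In HIP, Cartpt, Baiap3, Magel2 and Gpx3, all higher in HYP, were above every other library too. Magel2, an imprinted gene, was 4.602 to 4.815 against at most 3.922. In HYP, Itpka, a kinase of forebrain dendritic spines, was 4.531 to 5.382 against at most 4.213. Slc17a7, the vesicular glutamate transporter of cortex, was 6.372 to 7.484 against at most 6.703 and rose by 1.85 ± 0.56 (adjusted p 0.0418); leaving out any 1 of the 4 libraries ended that call, at adjusted p from 0.0505 to 0.1461. What lies behind these levels was not tested.

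**Figure D5:**
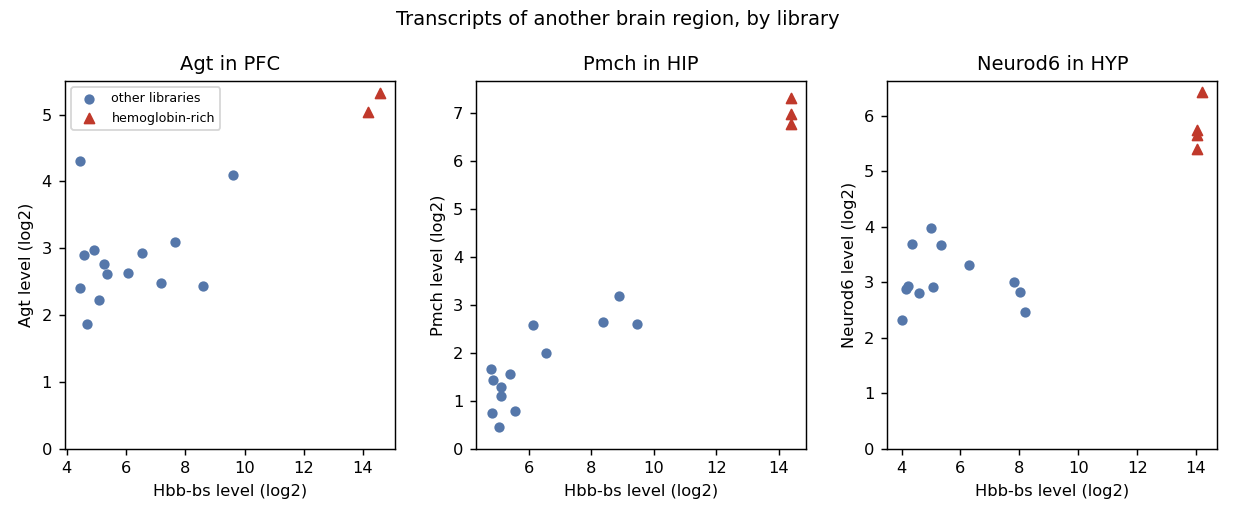
Level (y, log2) against Hbb-bs level (x, log2), by library, of Agt in PFC, Pmch in HIP and Neurod6 in HYP; triangles are the hemoglobin-rich libraries and circles the others. All triangles lie above all circles in each panel, with Pmch at 6.774 to 7.329 against at most 3.179.

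The difference between regions was tested as an interaction in the combined limma fit. Of 13512 genes, 0 had a larger and 1 a smaller difference in HIP than in PFC (411 at an unadjusted p below 0.05), 124 and 33 in HYP than in PFC, and 261 and 88 in HYP than in HIP. Of the genes called in the 3 contrasts, 1, 79 and 153 are in the blood table. P2ry12 rose by 0.82 more in HYP than in PFC and by 0.78 more than in HIP. Gng11 rose by 1.04 and 1.09 less, with a median in the other HYP libraries of 5.562 against 3.890 in PFC and 4.160 in HIP.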

How the data were processed

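RNA was sequenced from PFC, HIP, HYP and whole blood. Per the labels' protocols, brain tissue went into RNAlater, ribosomal RNA was depleted and strand-specific libraries were prepared. The submitters' processing notes name build GRCm38.p4. Aligner, counting and normalization: not given in the sources used here. Each tissue has a table of its own, as the authors deposited it, whose values were read as log2 levels, quantile normalized within the table; both were inferred from the values. Depth is unknown, no count model was run, and the number of value columns without a sample was 0.

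Libraries with Hbb-bs above 13 were compared with the others of the same table. The members, gene lists and tests were chosen with earlier results of these data known. Levels were compared with limma 3.58.1 (R 4.3.3, trended prior variance, two-sided, 10% of genes with the lowest mean left out, Benjamini-Hochberg adjustment, threshold 0.05). Globins and Alas2 stayed out of the brain fits. The combined fit over 13512 genes had region as a term and a random animal block (within-animal correlation 0.0512). The pairing comes from the animal names in the titles. Errors are standard errors of the fit. Correlations used 100000 permutations (scipy 1.17.1). The 26 lists hold 374 symbols, of which 349 were found in a table. Named genes were the globins and Alas2, the 4 members of a list with the largest difference and the 2 highest in blood, the 10 largest rises and falls outside the lists, and genes high in blood; genes of other brain regions, those called in 1 table only and those not following blood were added after their values were seen. Some named genes are not reported here. Hbb-bt, planned for the correlations, was not analysed here, and Hbb-b1 took its place. The limma step was tested on simulated data. Alternatives covered the filter, variance trend, treatment term, removal of globins, normal scores of ranks, Hbb-bs as a continuous covariate, the animal block and leaving out each library or animal; a filter on the other libraries and the correlations without the 3 highest animals were added after seeing the data. Promoters and positions are from RefSeq, GRCm38.p6.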

Additional observations from a re-analysis of the deposited data

Results flagged for a closer look

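Among 37 groups of 4 libraries checked (each gene's 4 hemoglobin-rich HYP libraries, and the blood of the same 4 animals), 7 had 1 library far from the other 3 by Dixon's gap to range ratio. The usual chance rate of about 1 in 20 does not hold here, since values set by rank are often tied. Hbb-bs, the gene of the rule, was at rank 7 in C1 and at rank 8 in C7, S7 and BS2 in HYP. In HYP, animal C1 stood above C7, S7 and BS2 for Hbb-bs (14.216), Slc4a1 (5.494), Ube2l6 (10.018) and Pf4 (7.553), and below them for Malat1 (14.025). In blood, S7 was lowest for Gata1 (3.742) and C7 for Igkc (8.147).

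For 13 named genes the difference between hemoglobin-rich and other libraries was itself different between regions in the limma interaction test. HYP minus PFC, it was -2.77 for Agt, 2.69 for Neurod6, 1.75 for Itpka, 0.98 for Fam220a, 1.12 for Camk2a, 0.82 for P2ry12, -0.50 for Rn7sk, -0.96 for Ucp2 and -1.04 for Gng11. HYP minus HIP, it was 3.13 for Neurod6, 1.89 for Itpka, 1.39 for Fam220a, 1.26 for Camk2a, 0.48 for Coro1a, 0.78 for P2ry12, -0.41 for Rn7sk, -0.57 for Gpx1, -0.79 for Ucp2, -1.09 for Gng11, -1.17 for Tal1 and -1.64 for Cdr2. Camk2a, a kinase of forebrain neurons, rose in HYP by 1.0 and fell in HIP by 0.25. Agt differed by 2.35 in PFC and fell in HYP by 0.43. Agt in PFC, Neurod6 in HYP and Cdr2 in HIP passed the filter on low values only through the hemoglobin-rich libraries, so that these interactions are in part fixed by it.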

How the results depend on the processing

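Counts of genes called higher kept within 1.5 times of the values given under each alternative other than leaving out a library and the fixed replicate block; the counts of genes called lower moved more. In PFC, 16 genes called lower became 2 with the globins removed, 2 with normal scores and 9 with Hbb-bs as a continuous covariate. In HIP, 108 became 60 with the globins removed and 69 with normal scores, and in the combined fit 317 became 197 with normal scores. With the animal as a fixed replicate block, 543 higher and 317 lower became 183 and 21; no replicate block gave 572 and 397. Leaving out 1 hemoglobin-rich library gave 97 to 132 higher and 5 to 11 lower in PFC, 241 to 292 and 32 to 77 in HIP, and 434 to 696 and 213 to 687 in HYP; leaving out 1 animal gave 400 to 513 and 135 to 254 in the combined fit, and 0 and 0 in blood. In PFC these fits leave 1 library, assumed to vary like the others. Signs reversed for Rn7sk (0.0292 and 0.00449), LOC101056014 (0.11 and 0.0123) and Rpph1 (0.151 and 0.0253) with the globins removed and with normal scores. The sign also reversed for Lars2 (0.0199) in the fixed replicate block. The cause of these reversals was not tested.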

Other observations

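The genes Gvin1, Igtp and Tgtp1, which code for GTPases known to be induced by interferon, are in none of the lists and were chosen after their values were seen; other members of that family were not counted. Gvin1, a very large GTPase, was 7.708 and 7.267 in PFC (others 4.799 to 5.753), 7.393, 7.623 and 7.867 in HIP (4.371 to 5.772), and 8.255, 7.793, 7.958 and 7.718 in HYP (5.652 to 6.785), and rose by 2.02 ± 0.12 in the combined limma fit (adjusted p 5.303e-20). Its mean in the 16 blood libraries, whose table was normalized separately, was 4.66. Igtp was 5.764 to 6.323 in HIP (others at most 4.157) and rose by 2.32 ± 0.16, with a blood mean of 5.18. Tgtp1 rose by 1.83 ± 0.26, with a blood mean of 4.85, but overlapped the other libraries in HYP, where these reached 5.735, and was not called with the animal as a fixed replicate block (adjusted p 0.4235).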
